A study of Mus musculus with 4 samples.

Results

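The 9 genes Col4a1, Col4a2, Lama3, Lama5, Lamb1, Lamb3, Lamc1, Nid1 and Hspg2 encode parts of the epithelial basement membrane: a pair of collagen IV chains, 5 laminin chains, nidogen and perlecan. They were taken as a named gene set, and 6 of the 9 had a named probe among the 15123 genes of the array, each with 1 probe. Lama3, Lama5 and Hspg2 had no named probe and were not analysed here. All cultures were wild-type epithelium from the small intestine of CD1 mice, grown in Matrigel with 2% serum, EGF, Noggin and R-spondin1. Matrigel is itself a basement membrane gel, and every culture shared it. From each of 4 animals, spheroids (round hollow cysts) and organoids (budding, crypt-like structures) were picked separately and passaged 3 times, and their RNA was hybridised together on 2-colour arrays of 70-base probes. The animals were a newborn (P0), an older fetus (E18) and 2 younger fetuses (E16), where E counts embryonic and P postnatal days. Values at E16 are given with the first pair before the second.

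The basement membrane is the thin sheet of matrix on which epithelial cells sit. Collagen IV chains join as trimers into a crosslinked network that gives the sheet its strength, and laminins, each made of an alpha, a beta and a gamma chain, form a second network that binds integrins on the cell. Nidogen and perlecan link both networks. In the fetal gut, mesenchyme is a known source of collagen IV, while epithelium contributes laminin chains.

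Each value is the log2 ratio of the 2 cultures of 1 animal, so a ratio of 1 is a 2-fold difference. The numerator is not named in the sources used here. The labels put the spheroid in the first channel and name it first, so a positive value is taken as likely higher in spheroids. With the opposite numerator every direction below would turn. In bulk RNA, more cells of a type and more RNA per cell cannot be told apart. The 94 negative control probes ranged from -0.36 to 0.20 over the 4 pairs and give the background of the ratios. No intensities were used here, so a ratio near 0 does not tell equal levels from absent signal.

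Col4a1 and Col4a2 lie head to head, an arrangement known for these paired collagen genes, and their start windows are shown because both genes had high ratios in every pair. The windows are those of RefSeq on mouse build GRCm38.p6, 250 bases before to 50 after an annotated start, for Col4a1 on the minus strand at chr8:11312777-11313076 and for Col4a2 on the plus strand at chr8:11312555-11312854. The 78 bases that both windows hold, chr8:11312777-11312854, are in capitals and run on opposite strands.
Col4a1: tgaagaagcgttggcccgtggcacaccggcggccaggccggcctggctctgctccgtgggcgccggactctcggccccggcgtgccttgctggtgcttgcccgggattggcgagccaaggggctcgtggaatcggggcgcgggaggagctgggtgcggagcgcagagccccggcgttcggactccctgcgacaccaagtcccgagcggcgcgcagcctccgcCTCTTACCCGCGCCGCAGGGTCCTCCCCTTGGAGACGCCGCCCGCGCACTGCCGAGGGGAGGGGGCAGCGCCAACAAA
Col4a2: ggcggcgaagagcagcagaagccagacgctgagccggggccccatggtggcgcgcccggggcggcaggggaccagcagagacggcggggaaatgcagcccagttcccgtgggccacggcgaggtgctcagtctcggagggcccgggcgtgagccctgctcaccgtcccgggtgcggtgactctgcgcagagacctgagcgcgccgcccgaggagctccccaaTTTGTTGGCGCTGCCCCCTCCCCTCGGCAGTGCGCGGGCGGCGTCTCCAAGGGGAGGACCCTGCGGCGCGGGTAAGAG
The annotated starts of these windows lie 21 bases apart, at 11312826 for Col4a1 and 11312805 for Col4a2. The annotated transcripts thus overlap there rather than leave a gap. The RefSeq span of the Col4a1 gene reaches further than its window's start, to 11312889. Each base in capitals lies within the 50 bases after 1 start or both. The GC content was 74.0% for the Col4a1 window and 73.7% for the Col4a2 window, against a median of 52.7% over 32817 start windows. The letters GGGCGG, searched on both strands as all motifs here, occurred once in the Col4a1 window and 3 times in the Col4a2 window, with 1 occurrence in the shared bases, and 35.6% of all windows held them. CCAAT occurred once in each window, in neither case wholly within the shared bases, and in 37.4% of all windows. TATAAA, held by 13.6% of all windows, was in neither. TGANTCA, the core recognised by AP-1 factors, was in 7.81% of all windows and in none of those listed for Col4a1, Col4a2, Lamb1, Lamb3 and Nid1. GGAATG, the core recognised by TEAD factors, was held by 14.7% of windows, by 1 of 2 windows of Lamb3 and by that of Nid1, and by neither collagen IV window. None of these motifs contains another.

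The collagen IV chains stood highest. Col4a1 (Entrez gene 12826), the first of the pair of chains that form the common collagen IV trimer, had log2 ratios of 3.98 at P0, 3.29 at E18, and 2.24 and 3.26 at E16. It was thus at least 4.72-fold higher in spheroids in each animal, and the first E16 pair was the lowest. The mean log2 ratio was 3.19 ± 0.72 (SD, n = 4), a 9.15-fold difference with a 95% interval of 2.35 to 4.04 on the log2 scale and an adjusted p of 0.0254 in limma. By mean ratio it ranked 15 of 15123 genes.

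Col4a2 (Entrez gene 12827), the partner chain, had log2 ratios of 4.23 at P0, 3.18 at E18, and 2.55 and 2.02 at E16. All 4 lay far above the negative control probes, and the P0 pair was the highest, as for Col4a1. The mean was 2.99 ± 0.95 (SD, n = 4), 7.96-fold, with an interval of 1.88 to 4.11 and an adjusted p of 0.0441. It ranked 21 of 15123.

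The 2 chains differed little from each other in 3 of 4 pairs. Col4a1 minus Col4a2 was -0.25 at P0, 0.12 at E18, and -0.31 and 1.24 at E16, a mean of 0.20 ± 0.72 (SD, n = 4). An exact two-sided sign-flip permutation test gave p = 0.875, and with 4 pairs it cannot go below 0.125. The sign of this mean rests on the second E16 pair, since it was -0.15 without that pair. Among 419 gene pairs with both members measured whose start windows overlap on opposite strands, 3 had both genes past the threshold, each in the same direction. These were Col4a1 with Col4a2, Gfer (0.56) with Noxo1 (1.49), and Pigp (-0.61) with Ttc3 (-0.22), named after their values were seen. Col4a1 with Col4a2 was the single such pair in which both mean log2 ratios were at least 1. Of all genes taken singly, 4.36% passed. The collagen IV pair was shown because its ratios were high, so these counts describe it and are no test.

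Lamb3 (Entrez gene 16780), the beta chain of laminin-332, which anchors epithelium at hemidesmosomes, had log2 ratios of 0.64 at P0, 0.90 at E18, and 0.99 and 1.25 at E16. The values lay close together, with the newborn lowest, where the collagen IV chains were highest. The mean was 0.94 ± 0.25 (SD, n = 4), 1.92-fold, with an interval of 0.64 to 1.24 and an adjusted p of 0.0345. It ranked 342 of 15123.

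Lamb1 (Entrez gene 16777), the beta chain shared by laminin-111 and laminin-511, had log2 ratios of 2.78 at P0, 0.74 at E18, and 1.60 and 1.20 at E16. Its mean of 1.58 ± 0.87 (SD, n = 4), 2.99-fold, was larger than that of Lamb3, but its spread was wider and the adjusted p of 0.115 missed the threshold. Its interval was 0.56 to 2.61.

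Lamc1 (Entrez gene 226519), the gamma chain of most laminins, had log2 ratios of 1.55 at P0, 0.16 at E18, and 1.23 and 0.77 at E16. The pairs stood in the same order as for Lamb1, from P0 down to E18. The mean was 0.93 ± 0.61 (SD, n = 4), with an interval of 0.21 to 1.64 and an adjusted p of 0.156.

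Nid1 (Entrez gene 18073), the linker that binds the laminin gamma chain and collagen IV, had the lowest mean of the 6. Its log2 ratios were 0.56 at P0, 1.43 at E18, and 0.29 and 0.19 at E16. The E18 pair was the highest here, unlike for Lamb1, Lamb3 and Lamc1, and the second E16 pair lay within the negative control probes of that array. The mean was 0.62 ± 0.56 (SD, n = 4), with an interval of -0.05 to 1.28 and an adjusted p of 0.267. Without the E18 pair the mean was 0.35.

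**Figure D1:**
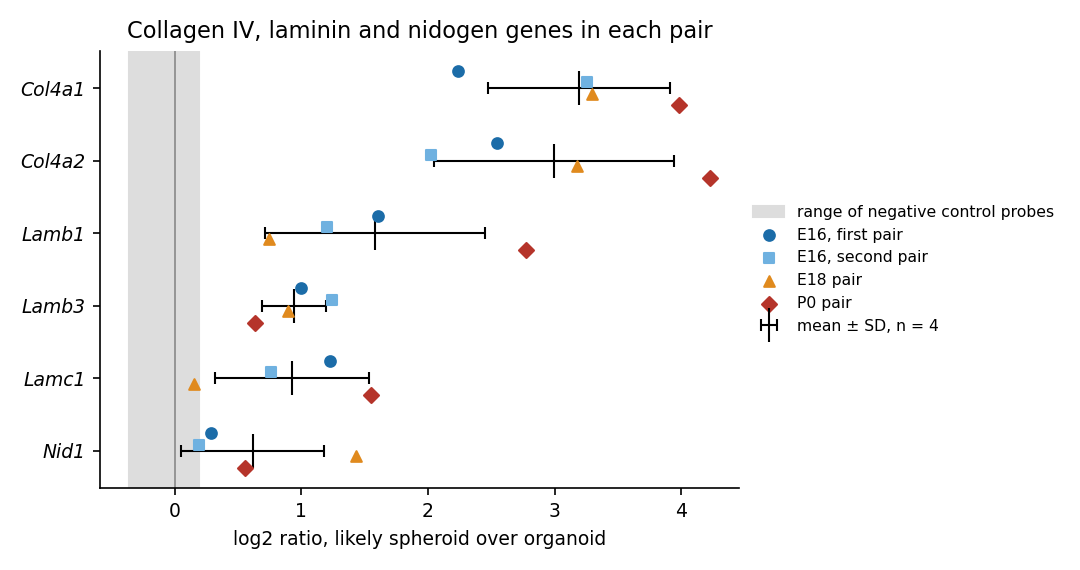
Log2 ratio (x axis, likely spheroid over organoid) of the 6 measured genes in each of the 4 pairs. Points are pairs, the upright tick and bar are the mean ± SD, and the grey band is the range of the negative control probes over all pairs (-0.36 to 0.20). Col4a1 and Col4a2 lie between 2.02 and 4.23 in all pairs, while the Lamc1 value of the E18 pair and the Nid1 value of the second E16 pair fall inside the band.

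In all, 3 of 6 measured genes passed the threshold of an adjusted p of 0.05, all higher in spheroids, where 4.36% of all genes passed in either direction and 3.02% passed higher. The 6 genes were positive in all 4 pairs, as were 16.3% of all genes. At least 2-fold by their mean were 3 of the 6, Col4a1, Col4a2 and Lamb1, against 2.1% of all genes. Above every negative control probe of the same pair in all 4 pairs were 5 of the 6, against 6.74% of all genes. The median of the 6 means was 1.26, and that of all genes was -0.00325. Since the genes were chosen with earlier results of these data known, these shares describe them and are no test of the set.

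All 3 calls need all 4 animals. With the P0, first E16, second E16 or E18 pair left out, in that order, the adjusted p of Col4a1 was 0.0735, 0.121, 0.132 and 0.0561, that of Col4a2 0.0785, 0.198, 0.126 and 0.0871, and that of Lamb3 0.0661, 0.190, 0.116 and 0.0681. Their means stayed positive throughout, between 2.93 and 3.51, 2.58 and 3.32, and 0.84 and 1.05. The E16 pairs correlated at 0.916 across genes, which are not independent replicates, and share a stage. With a within-stage correlation set at 0.5, Col4a1 passed (adjusted p = 0.0424), while Col4a2 (0.0548) and Lamb3 (0.0549) did not.

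**Figure D2:**
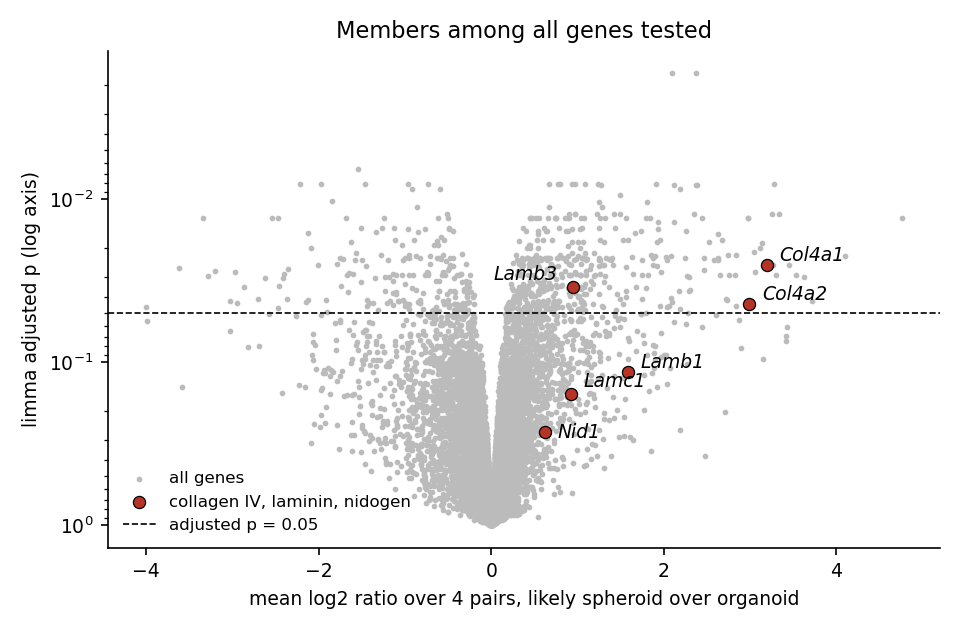
Mean log2 ratio over the 4 pairs (x axis, likely spheroid over organoid) against the limma adjusted p (y axis, log scale, small values at the top) for 15123 genes in grey, with the 6 basement membrane genes in red. Col4a1, Col4a2 and Lamb3 lie above the dashed line at 0.05. Lamb1 has a larger mean than Lamb3 (1.58 against 0.94) but lies below the line.

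The order of the 6 genes within an animal was partly shared. The collagen IV chains took the first 2 places in every pair. In the P0 pair and the first E16 pair Lamb1, Lamc1, Lamb3 and Nid1 followed in that order. In the second E16 pair Lamb3 (1.25) stood level with Lamb1 (1.20). In the E18 pair Nid1 (1.43) took the third place and Lamc1 (0.16) the last.

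Within animals, the ratio of Col4a1 exceeded that of Lamc1 in 4 of 4 pairs, by 2.43 at P0, 3.14 at E18, and 1.01 and 2.49 at E16. The mean difference in log2 ratio was 2.27 ± 0.90 (SD, n = 4), and the exact sign-flip permutation test gave p = 0.125, the smallest possible with 4 pairs, or 0.375 after Benjamini-Hochberg adjustment over 3 differences. Lamb3 and Lamb1, the beta chains of different laminins, did not differ one way: Lamb3 minus Lamb1 was -2.14 at P0, 0.15 at E18, and -0.61 and 0.04 at E16. That mean difference was -0.64 ± 1.06 (SD, n = 4), with an exact permutation p of 0.5, and it was -0.14 without the P0 pair. These compare ratios of different probes, not levels of the genes.

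The ratios were then set by stage, the 2 E16 pairs against the E18 and P0 pairs. The groups did not overlap for 4 of the 6 genes, Col4a1, Col4a2 and Nid1 with lower ratios at E16 and Lamb3 with a higher one. Of all genes, 50.8% did not overlap in either direction and 25.9% did not overlap with the lower ratios at E16. For Col4a2 the mean log2 ratio was 2.28 at E16 and 3.70 later, a difference of -1.42 with a 95% interval of -2.81 to -0.03 and an adjusted p of 0.256. For Col4a1 the means were 2.75 and 3.64, with a difference of -0.89 (interval -2.35 to 0.57, adjusted p = 0.467). For Nid1 they were 0.24 and 0.99, a difference of -0.75 (interval -1.80 to 0.30, adjusted p = 0.389). For Lamb3 they were 1.12 and 0.77, a difference of 0.35 (interval -0.10 to 0.80, adjusted p = 0.352). Lamb1 (1.40 at E16 and 1.76 later) and Lamc1 (1.00 and 0.85) overlapped, since P0 was their highest and E18 their lowest pair. With 1 pair left out, the difference ran from -1.94 to -0.90 for Col4a2 (nearest 0 without P0), from -1.40 to -0.38 for Col4a1 (without the first E16 pair), from -1.19 to -0.32 for Nid1 (without E18) and from 0.22 to 0.48 for Lamb3 (without P0).

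In limma, 0 of 6 genes and 0.0% of all genes passed between the stages, while 2883 genes had an unadjusted p under 0.05. With 2 against 2 pairs, E18 and P0 are 1 animal each, so a difference of stage cannot be told apart from one between animals. Nid1 passed without the P0 pair (difference -1.19, adjusted p = 0.0314), which sets the lone E18 animal against E16 and assumes that it varies as the E16 pairs do. In that fit 10.2% of all genes passed, and Nid1 was 1 of the 6.

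Other chains of the same families mostly lay near 0. Of 5 further laminin chains measured, 0 passed the threshold and 4 (Lama1, Lama2, Lama4 and Lamc3) had means inside the range of the negative control means, -0.16 to 0.07. The exception was Lamb2, a beta chain known from muscle and kidney, with 0.73 at P0, 0.10 at E18, and 0.71 and 0.48 at E16. Its mean was 0.51 ± 0.29 (SD, n = 4, adjusted p = 0.130). The lowest value again came from the E18 pair, as for Lamb1 and Lamc1. Of 4 further collagen IV chains, 0 passed, and Col4a3, Col4a4 and Col4a6, which form the more specialised trimers of kidney and other tissues, lay inside that range. Col4a5, another chain of those trimers, had a mean of 0.67 ± 0.37 (SD, n = 4, adjusted p = 0.118) and was positive in 4 of 4 pairs, with the P0 pair highest at 1.14.

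Among 19 other components of the basement membrane and its borders, 3 passed higher and 1 lower, against 3.02% and 1.34% of all genes, and the median was 0.01. Efemp1, a fibulin of the extracellular matrix, was higher at 2.65 ± 0.65 (SD, n = 4, adjusted p = 0.0293), with 3.45 at P0, 2.00 at E18, and 2.91 and 2.25 at E16. Tinagl1, a secreted matrix glycoprotein that binds laminin, was higher at 1.37 ± 0.28 (adjusted p = 0.0232). Npnt, the integrin ligand nephronectin, was higher by a small amount, 0.21 ± 0.04 (adjusted p = 0.0443). Fbln1, a fibulin that binds nidogen and laminin, was lower at -1.33 ± 0.21 (adjusted p = 0.0160), and its 3 probes each had a negative mean. Fbln2, another fibulin, named after its value was seen, lay inside the negative control range at 0.04 ± 0.12 (adjusted p = 0.805).

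Col18a1, whose collagen XVIII carries heparan sulphate in basement membranes, had a mean of 1.04 ± 0.37 (SD, n = 4) and missed the threshold with an adjusted p of 0.0550. Its 2 probes disagreed, with means of 2.11 and -0.0295. The heparan sulphate proteoglycan gene Agrn had a mean of 0.36 ± 0.19 (adjusted p = 0.117), with probe means of 0.59 and 0.12. The small proteoglycan gene Bgn was positive in 4 of 4 pairs at 0.09 ± 0.05 (adjusted p = 0.220). Each Bgn value lay below the highest negative control probe of its own pair. Nid2, the sister of Nid1, was -0.03 at P0, -0.61 at E18, and 0.74 and 0.84 at E16. Nid2 was thus highest at E16, where Nid1 was lowest, and its mean of 0.24 ± 0.68 had an adjusted p of 0.749.

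Of 18 measured genes that make and secrete collagen, 0 passed the threshold and the median was -0.19. Serpinh1, the collagen chaperone HSP47, came closest at 1.01 ± 0.37 (SD, n = 4, adjusted p = 0.0560), with 1.08 at P0, 0.47 at E18, and 1.19 and 1.29 at E16. Crtap, a partner of prolyl 3-hydroxylase, had a mean of 0.43 ± 0.22 (adjusted p = 0.105). The prolyl 4-hydroxylase subunit P4ha1, at -0.44 ± 0.36 (adjusted p = 0.235), and the lysyl hydroxylase Plod3, at -0.29 ± 0.15 (adjusted p = 0.114), had negative ratios in 4 of 4 pairs. Of 6 crosslinking enzymes, 0 passed and 4 lay inside the negative control range. Loxl4, a member of the lysyl oxidase family that crosslinks collagens, had a mean of 0.48 ± 0.27 (adjusted p = 0.121). The transglutaminase Tgm2 had one of -0.35 ± 0.60 (adjusted p = 0.545). That mean rests on the E18 pair (-1.22), since it was -0.06 without that pair.

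Of 16 receptors for collagen IV and laminins and their partners, 2 passed higher and 1 lower, against 3.02% and 1.34% of all genes, with a median of 0.13. Cd44, a hyaluronan receptor that also binds matrix, was higher at 0.79 ± 0.10 (SD, n = 4, adjusted p = 0.0151), although 2 of its 8 probes had means near 0 (-0.01 and 0.08). The heparan sulphate carrier Sdc1 was higher at 0.78 ± 0.23 (adjusted p = 0.0423). The laminin-binding integrin chain Itga6 was lower at -0.28 ± 0.07 (adjusted p = 0.0393). Its 2 probes had means of -0.37 and -0.20, and neither passed on its own (limma adjusted p over probes = 0.079 and 0.089). Itga3, another laminin-binding chain, named after its value was seen, had a mean of 0.52 ± 0.67 (adjusted p = 0.417). Itgb4, the partner chain of Itga6, had no named probe. The laminin receptor Bcam, at 0.39 ± 0.23 (adjusted p = 0.132), the collagen receptor Ddr1, at 0.31 ± 0.17 (adjusted p = 0.122), and the shared integrin chain Itgb1, at 0.22 ± 0.17 (adjusted p = 0.236), did not pass. The integrin chain Itgav, positive in 4 of 4 pairs at 0.29 ± 0.22 (adjusted p = 0.210), did not pass either. Probe means differed for Ddr1 (0.55 and 0.06) and for Itgb1 (0.34 and 0.09).

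Of 16 proteases and inhibitors that act on the basement membrane, 3 passed higher and 0 lower, against 3.02% and 1.34% of all genes, with a median of 0.06. Timp2, an inhibitor of matrix metalloproteases, was higher at 1.80 ± 0.18 (SD, n = 4, adjusted p = 0.0104), with 1.98 at P0, 1.57 at E18, and 1.75 and 1.90 at E16. The urokinase receptor Plaur was higher at 2.29 ± 0.65 (adjusted p = 0.0368) and the tissue plasminogen activator Plat at 1.26 ± 0.30 (adjusted p = 0.0289). Timp1 had a mean of 0.88 ± 0.59 (adjusted p = 0.164) and Timp3 one of 0.59 ± 0.89 (adjusted p = 0.488), negative in the P0 pair at -0.59. The membrane protease Mmp14 stood at 0.23 ± 0.43 (adjusted p = 0.587), and the urokinase gene Plau at 0.09 ± 0.07 (adjusted p = 0.285), positive in 4 of 4 pairs. Each Plau value lay within the range of single negative control probes over all pairs (-0.36 to 0.20).

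**Figure D3:**
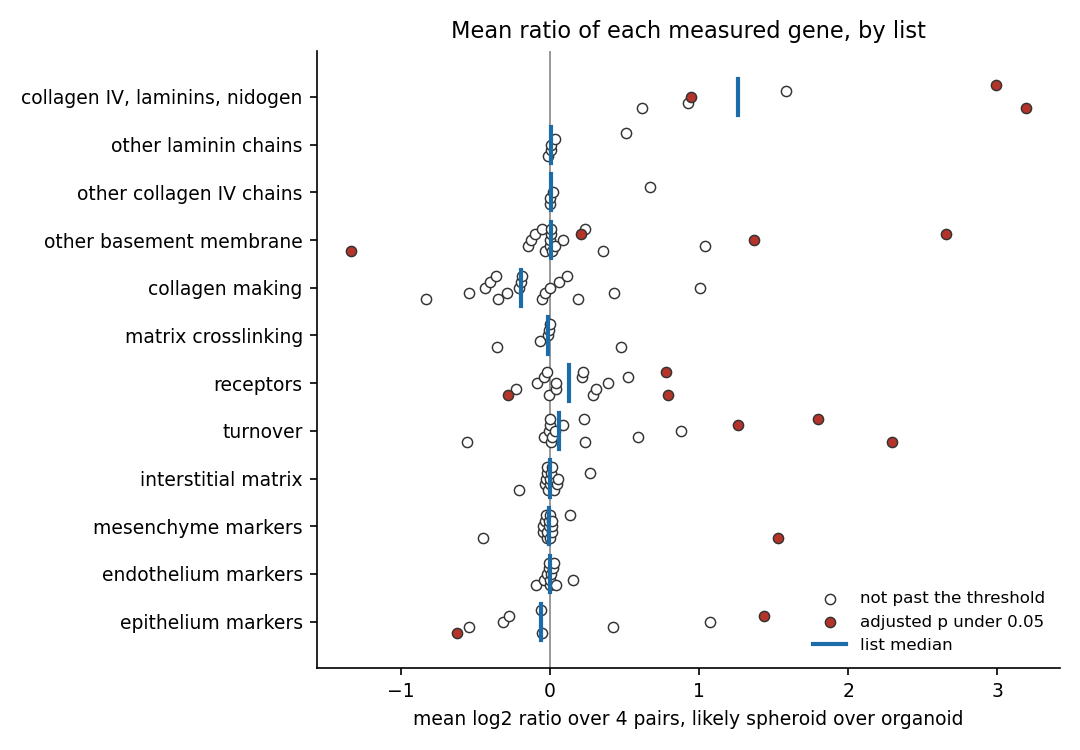
Mean log2 ratio over 4 pairs (x axis, likely spheroid over organoid) of each measured gene, by gene list. Red points passed the threshold, open points did not, and blue lines are list medians. The median of the collagen IV, laminin and nidogen genes is 1.26, and those of the other lists lie between -0.19 and 0.13.

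Markers of other cell types were read beside these values, because fibroblasts and endothelium also make collagen IV and laminins. Of 14 interstitial matrix genes known from fibroblasts, 0 passed and 12 lay inside the negative control range, with list medians by pair from -0.02 to 0.02. The fibrillar collagen genes Col1a1, Col1a2 and Col3a1, named after their values were seen, were among the 12. Outside it were the fibronectin gene Fn1, at 0.27 ± 0.28 (SD, n = 4, adjusted p = 0.324), and the matrix protein gene Postn, at -0.21 ± 0.25 (adjusted p = 0.404). The probes of Fn1 disagreed, with means of 0.53 and 0.49 against 0.02 and 0.02. The higher ones stood at 1.46 and 1.19 in the first E16 pair. Probe means of Postn were -0.36 and -0.05. Of 16 mesenchyme markers, 13 lay inside that range and 1 passed, S100a4, a calcium-binding protein that is not limited to mesenchyme, at 1.53 ± 0.25 (SD, n = 4, adjusted p = 0.0178). Rgs5, a pericyte marker, was positive in 4 of 4 pairs at 0.13 ± 0.06 (adjusted p = 0.130), with 0.19 at P0, 0.17 at E18, and 0.06 and 0.10 at E16. Each Rgs5 value lay within the range of single negative control probes over all pairs (-0.36 to 0.20). Only those at P0 and E18 exceeded every control probe of their own pair. Vim, an intermediate filament gene of the same marker list, was negative in 4 of 4 pairs at -0.45 ± 0.39 (adjusted p = 0.247). Of 12 endothelium markers, 0 passed and 11 lay inside the range. The receptor Tek, at 0.16 ± 0.09 (adjusted p = 0.167), was outside it. These are ratios, so they do not give the level of such cells, and their part in the collagen IV and laminin ratios was not tested.

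The epithelial label was checked in the same way. Of 9 epithelium markers, Krt18, a keratin of simple epithelia, was higher at 1.44 ± 0.21 (SD, n = 4, adjusted p = 0.0151), and Epcam, the epithelial adhesion molecule, was lower at -0.63 ± 0.09 (adjusted p = 0.0181). The other 7 did not pass, among them Krt8 at 0.42 ± 0.16 (adjusted p = 0.0645) and Krt19 at 1.07 ± 0.54 (adjusted p = 0.101). The probes of Krt8 disagreed, with means of 0.84 and 0.01. The intestinal factor Cdx2 had a positive ratio in the E18 pair (0.65) and negative ones from -1.02 to -0.84 in the others. The intestinal cadherin Cdh17 was likewise positive at E18 (0.26) and negative in the other 3 pairs, with a mean of -0.31 ± 0.43 (adjusted p = 0.446). The E18 pair is the one in which Lamc1, Lamb1 and Lamb2 were lowest and Nid1 highest. Whether these values are linked to those of the epithelium markers was not tested.

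**Figure D4:**
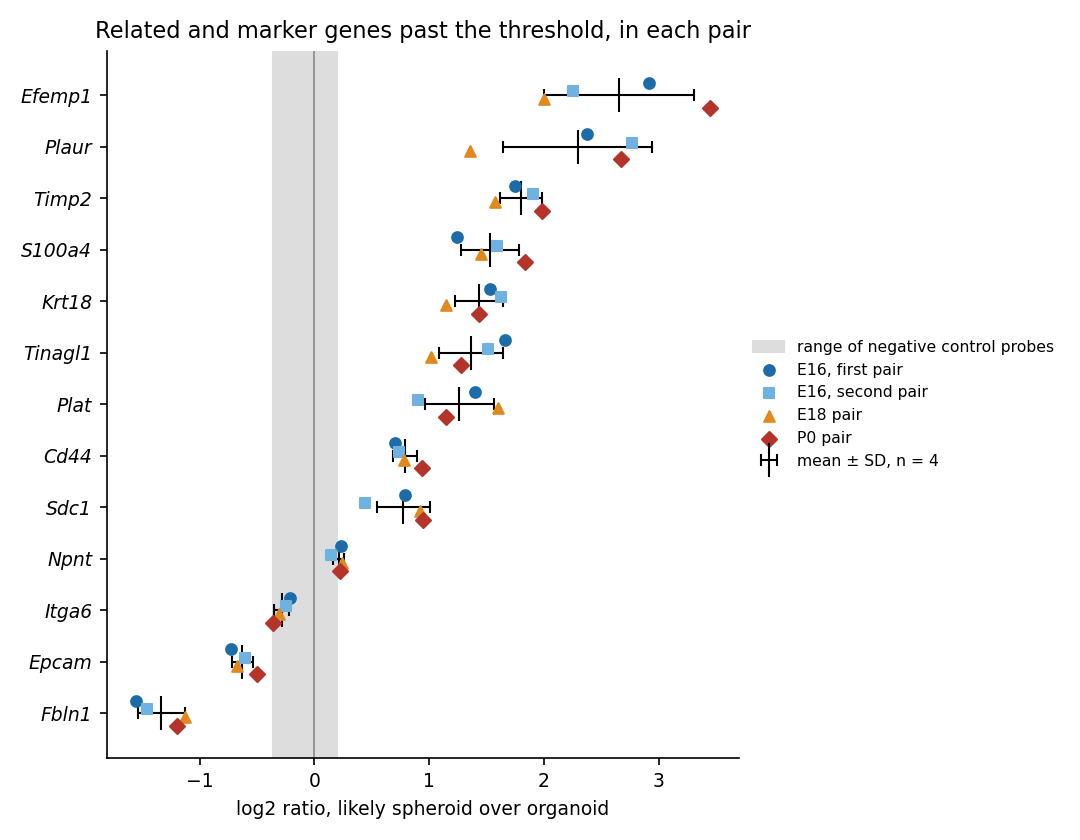
Log2 ratio (x axis, likely spheroid over organoid) in each pair for the 13 related and marker genes past the threshold. Points are pairs, ticks and bars the mean ± SD, and the grey band the range of the negative control probes. Efemp1, Plaur and Timp2 have the highest means (2.65, 2.29 and 1.80), and Fbln1, Epcam and Itga6 are negative in all pairs.

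Of these 13 related and marker genes, 4 (Cd44, Epcam, S100a4 and Timp2) also passed without the P0 pair, 10 without the E18 pair and 0 without either E16 pair. Over all genes the number past the threshold was 660 with all pairs, 740 without E18, 145 without P0, 2 without the first E16 pair and 0 without the second, where 2346 genes had an unadjusted p under 0.05. With 1 probe per gene, the first by probe name, in place of the mean over probes, Cd44, Itga6, Npnt and Sdc1 did not pass. Tested on its own in limma, another probe passed for Cd44 (adjusted p over probes = 0.0151), Npnt (0.0411) and Sdc1 (0.0184), but none for Itga6. With the within-stage correlation set at 0.5, the calls of Plaur (adjusted p = 0.0553), Plat (0.0536), Itga6 (0.0536), Sdc1 (0.0688) and Npnt (0.0794) were lost.

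Genes with clone or locus names were left out of the search for ratios like those of Col4a1 and Lamb3. The other genes with ratios most like those of Col4a1 over the 4 pairs were found by the root mean square difference in log2 ratio. They were Lor, a cornified envelope protein (0.24), Anxa1, an annexin (0.34), Mal, a membrane proteolipid (0.38), Clu, a secreted chaperone (0.41), and Igfbp7, a secreted protein that binds insulin-like growth factors (0.44). Col4a2 was farther, at 0.65. For Lamb3 they were Stn1, a telomere-capping factor (0.14), Tead4, the DNA-binding partner of YAP (0.15), Fndc10 (0.15), Mgmt, a DNA repair enzyme (0.16), and Klhl13, an adaptor of ubiquitin ligases (0.19). Of these 10 genes, Fndc10 did not pass the threshold (adjusted p = 0.0552). The probes of Mgmt disagreed, with means of 0.11 and 1.69, so its nearness to Lamb3 rests on their average. With 1 probe per gene, Mgmt (adjusted p = 0.158) and Tead4 (0.0534) did not pass either, though another probe of each passed when tested on its own. Likeness over 4 pairs is a description and carries no test. Among the 6 basement membrane genes, the closest to each other were Lamb3 with Lamc1 (0.65) and Col4a1 with Col4a2 (0.65), and the farthest Col4a1 and Nid1 (2.66).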

How the data were processed

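The values were log2 ratios as deposited by the authors, 1 per probe and animal for 38083 probes. Every value was a whole multiple of 0.0005. Base 2 is the usual base and is stated by no label. Per the labels' protocols, amplified RNA carried Cy3 or Cy5, and each culture is listed with both dyes. The sources used here do not give the background correction, the normalization or the way dye orientations were combined. Column medians lay between -0.0055 and -0.001.

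GEO's platform annotation named 1 gene for 22941 probes and none for 15142, and all 22941 were found in the RefSeq gene table of GRCm38.p6. Averaging the 22305 named probes with the mM prefix gave 15123 genes.

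With limma 3.58.1 (lmFit, eBayes; R 4.3.3), the mean of the 4 pairs was set against 0 and the stages were compared. Tests were two-sided, and p-values were adjusted by Benjamini-Hochberg across the 15123 genes, with 0.05 as threshold. The fits were tested on simulated data. Pairs come from separate animals and were treated as independent, and their number limits the precision.

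The members and lists were chosen with earlier results of these data known. All 9 members are named. From each list, the rule names genes past the threshold and up to 4 further ones with the largest moderated t. Keeping the further ones to means outside the negative control range was added after seeing the data. For Col4a1 and Lamb3 the 5 nearest genes are named, with clone and locus names left out. Alternatives were column scaling, 1 probe per gene, control-prefix probes included, a robust prior, array weights, a mean of stage means, a stage block, other thresholds, single probes and leaving out each pair.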

Additional observations from a re-analysis of the deposited data

Results flagged for a closer look

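In 3 of 61 values examined, 1 of the 4 pairs lay far from the others, by the gap to the nearest pair over the whole range (Dixon's 95% criterion). Chance alone marks about 1 value in 20. None of the 6 collagen IV, laminin and nidogen genes was among them. Col18a1 had a log2 ratio of 1.60 in the P0 pair against 0.81 to 0.90 in the others. Crtap was 0.76 in the first E16 pair against 0.30 to 0.37. Cdx2 was 0.65 in the E18 pair against -1.02 to -0.84.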

How the results depend on the processing

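The count of 3 genes of 6 past the threshold was 1 with a stage block (correlation set at 0.5, added after seeing the data), 6 with a mean of the 3 stage means and 0 when any 1 pair was left out. In the mean of stage means the spread comes only from the E16 pairs. Col4a2 also missed with a robust prior (adjusted p = 0.0535), and Lamb1 passed with array weights (0.0492). Of all alternatives, 0 turned the sign of a mean of the 6 genes. Over all genes, the count of 660 was 353 with the stage block, 1417 with array weights, 3763 with stage means, 25 and 1381 at thresholds of 0.01 and 0.1, 256 with a 2-fold minimum and between 0 and 740 when a pair was left out. For genes of the other lists, 13 became 8 with the block, 37 with stage means and between 0 and 14 with a pair left out. With 1 probe per gene, the first by probe name, 9 of the 13 passed, and Col18a1 turned to -0.0295. Its other probe had a mean of 2.11. The stage comparison called 0 genes, and 0 to 1544 with a pair left out (1544 without P0, 443 without E18). Its difference ran from -1.37 to 0.66 for Lamb1, with the sign turned without P0, and from -0.56 to 0.84 for Lamc1, with the sign turned without E18 (-0.56) or the first E16 pair (-0.0895). Leaving out a pair gave Col4a1 minus Col4a2 from -0.15 to 0.37, with the sign turned without the second E16 pair. Fewer pairs leave fewer degrees of freedom, and the cause of the other shifts was not tested. The planned stage block with an estimated correlation could not be fitted, since duplicateCorrelation gave no estimate for 3 stages of 4 pairs, and Lama3 minus Lama5 had no probe.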
